A study of Solanum lycopersicum with 21 samples.

Results

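FUL2-TM3, a complex of the MADS-domain transcription factors FUL2 and TM3, held dense blocks of DAP-seq peaks at the ends of most tomato chromosomes. Near chromosome ends, in these blocks and outside them, 3770 of its regions carried no peak of any of the 5 other complexes tested. These regions were chosen by position and by presence in the peak lists. Overlapping peaks of the 6 lists were joined into 26850 regions, and a region was taken when it held a peak of FUL2-TM3 and of no other list, lay on chromosomes 1 to 12 and had its midpoint under 1 Mb from a chromosome end. An end was position 0 or the last peak end of the chromosome over all lists, so the distance to the physical telomere is not known. The 3770 regions are 14.0% of all regions, with a 95% Wilson confidence interval from 13.6% to 14.5%, and each holds exactly 1 FUL2-TM3 peak.

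In DAP-seq, a protein made in a cell-free system is incubated with a library of purified genomic DNA fragments, and the fragments pulled down with its tag are sequenced, so that binding is measured in vitro on DNA free of chromatin. FUL2 and MC, both with a 3×FLAG tag, were each combined with J, J2 or TM3 in a wheat germ expression system and offered fragments of wild-type young leaf DNA of the cultivar Moneyberg, with 3 libraries per complex. Input from a reaction without plasmid, with 3 libraries in all, served as control for all 6 complexes, which therefore are not independent of each other. How many of these input libraries entered the peak calling is not known. Peaks were called after the libraries of a complex had been merged, so every value below is a pooled value of 1 list. There is no replicate error, and no difference given here was tested.

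MADS-domain proteins bind DNA as dimers, and pairs of dimers can join into tetramers that hold 2 sites. Their usual site is the CArG-box, a short AT-rich sequence, and the partner can change which of these boxes a complex prefers. FUL2 and MC belong to the AP1/FUL clade, known for roles in flowering, inflorescence architecture and fruit development, J and J2 take part in pedicel and inflorescence development, and TM3 is a relative of SOC1, a flowering regulator described in Arabidopsis. Plant chromosomes end in telomere repeats, which often are flanked by tandemly repeated satellite DNA. The Moneyberg sequence and its annotation were not used here, so neither the sequence under the regions nor CArG-boxes or genes in them were examined. The gene list of the study for FUL2-J could be read only for chromosome 1 and the first part of chromosome 2. Of its 866 genes 13 lay within 1 Mb of an end, and 0 of them held the midpoint of one of the 3770 regions. That list belongs to a complex without a peak in these regions, most of which lie on other chromosomes. The count of 0 therefore says nothing about genes in the regions.

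Near chromosome ends, most FUL2-TM3 regions held no called peak of another complex. Alone here means only that no such peak was called. From a genome browser, the paper reports that targets seemingly specific to FUL2 or MC were close to the threshold. They lay barely over it for MC and barely under it for FUL2, or the reverse. In its DAP-seq data the paper identified no binding site truly specific to FUL2 or MC. At the gene SP, which had no significant DAP-seq peak, it reports a downstream site bound by MC with J and not by FUL2 with J. That result came from gel shifts and from qPCR on an amplified library. Signal of other complexes below the threshold in these regions was not tested. Of the 4900 FUL2-TM3 regions under 1 Mb from an end, 76.9% (75.7% to 78.1%) carried no other peak, against 21.7% (20.7% to 22.9%) of the 5417 FUL2-TM3 regions elsewhere on the chromosomes. On chromosomes 1 to 12 as a whole, 48.0% of the FUL2-TM3 regions and 18.7% of all regions were FUL2-TM3 alone. Being alone and near an end chose the regions, so these shares describe the selection and support nothing. Put the other way, 76.2% of the 4948 FUL2-TM3-alone regions of the chromosomes were within 1 Mb of an end and 1178 were elsewhere. Of all 5218 regions of any list near an end, 93.9% held a FUL2-TM3 peak. The remaining 1130 FUL2-TM3 regions near ends were shared, and 1006 of these (89.0%) were shared with MC-TM3 and no other complex. All intervals on shares and medians cover counting error over regions and no variation between libraries, and neighbouring regions are not independent.

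The regions were spread over 23 of the 24 ends, and unevenly. The left end of chromosome 5 held 440 regions, the most of any end. It was followed by the right end of chromosome 3 with 359, the left end of chromosome 9 with 351, the left end of chromosome 8 with 316, the right end of chromosome 8 with 278 and the left end of chromosome 1 with 235. These 6 ends together held 1979 regions, or 52.5%. At 20 ends there were at least 20 regions, with the right end of chromosome 11 the lowest of them at 26, and the median over all 24 ends was 145. Chromosomes 3, 4, 5, 7, 8, 9, 10, 11 and 12 had at least 20 regions at both ends.

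The other 4 ends were almost empty of them. The left end of chromosome 2 and the right end of chromosome 6 held 2 regions each, the right end of chromosome 2 held 1 and the right end of chromosome 1 held 0. Other complexes did have peaks there. At the right end of chromosome 1 there were 19 peaks of MC-J, 11 of MC-TM3, 8 of FUL2-J, 4 of MC-J2 and 2 of FUL2-J2, beside 2 of FUL2-TM3. At the right end of chromosome 6, FUL2-J had 15 peaks, MC-J 13, FUL2-J2 12 and MC-J2 6, against 18 of MC-TM3 and 12 of FUL2-TM3. At the left end of chromosome 2, the outermost peak of any list lay 399.6 kb from position 0, so a large part of that window held no peak at all.

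**Figure D1:**
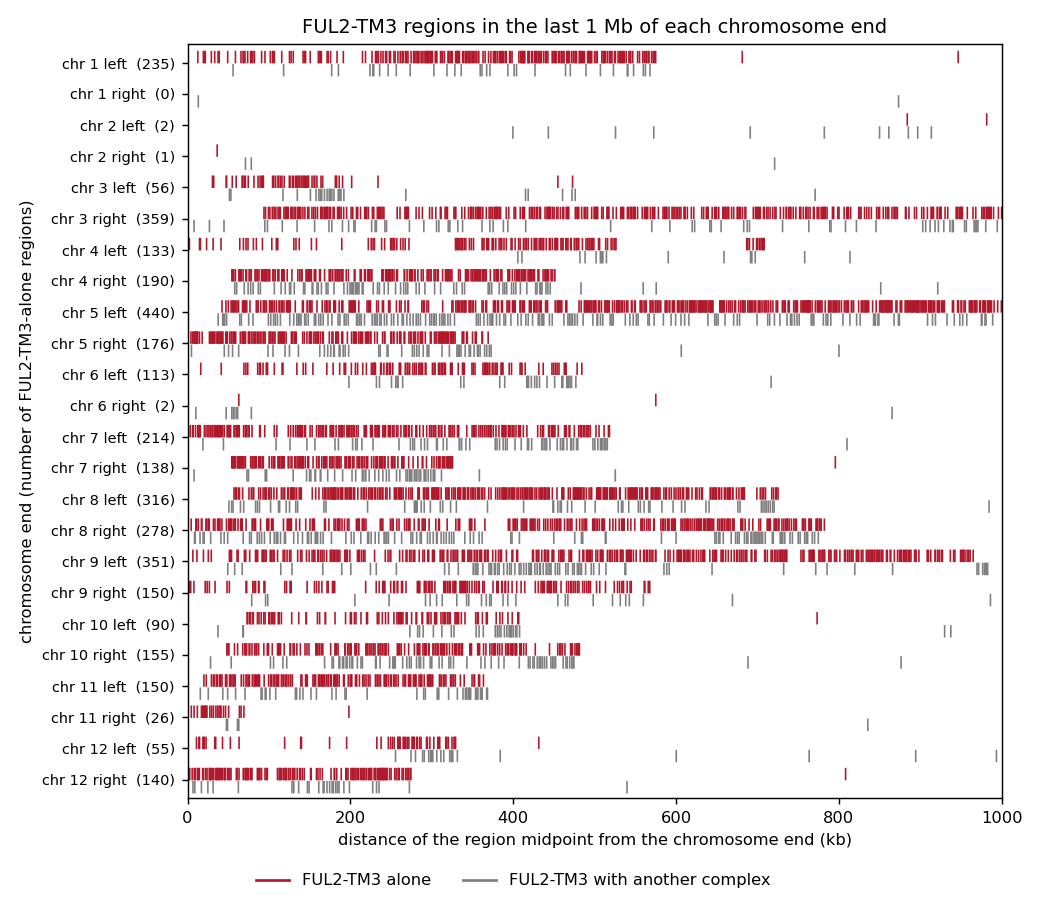
FUL2-TM3 regions in the last 1 Mb of each of the 24 chromosome ends, as ticks at the distance of the midpoint from the end in kb. Red ticks are regions of FUL2-TM3 alone, with their number in brackets, and grey ticks are regions shared with another complex. The 20 ends with 26 to 440 regions show dense blocks of differing length, and the 4 ends with 0 to 2 show none.

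Within the 1 Mb the regions lay mostly in the outer part. From the end inwards in steps of 0.1 Mb, summed over all ends, their number was 505, 612, 632, 587 and 460 in the outer 0.5 Mb and 302, 236, 186, 137 and 113 in the inner 0.5 Mb. The outer 0.5 Mb thus held 74.2% (72.7% to 75.5%), and 78.9% without the left end of chromosome 5. Beyond 1 Mb the number fell away at once. From 1 to 1.2 Mb there were 40 FUL2-TM3-alone regions, of which 32 were at the left end of chromosome 5, and from 1.2 to 2 Mb there were 19. The blocks did not begin or stop at a common distance. The outermost region lay 93.9 kb from the right end of chromosome 3 and 0.146 kb from that of chromosome 9, where the distance is counted from the last peak end. At 12 ends 95% of the regions were within 0.5 Mb, and this limit reached past 0.9 Mb at 3 ends, the left ends of chromosomes 5 and 9 and the right end of chromosome 3, at 960, 916 and 950 kb.

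**Figure D2:**
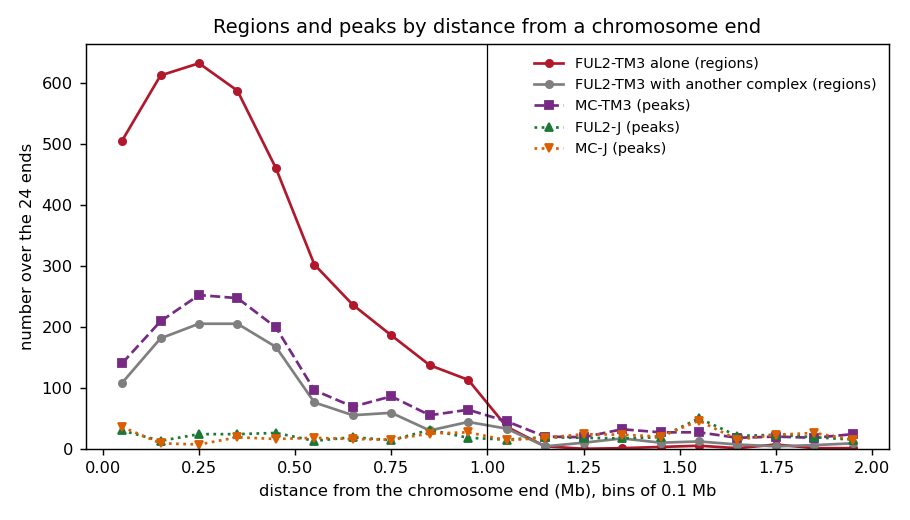
Number of FUL2-TM3-alone regions (red), shared FUL2-TM3 regions (grey) and peaks of MC-TM3, FUL2-J and MC-J in steps of 0.1 Mb from the chromosome end, summed over the 24 ends. The black line marks the 1 Mb used to choose the regions. FUL2-TM3 alone falls from 632 in the third step to 113 in the tenth and 0 between 1.2 and 1.3 Mb, and MC-TM3 from 252 to 64 and 19 in these steps.

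The regions stood close together. The median distance between the midpoints of neighbours at the same end was 1747.5 bp (1696.5 to 1806.5 bp, from 3747 spacings), with quartiles of 1100 and 3095.5 bp. For the FUL2-TM3-alone regions elsewhere it was 374623 bp. Under 2 kb lay 56.6% of the spacings and under 10 kb 97.3%. The edges of neighbours lay a median of 1102 bp apart, and never less than 148 bp. Shared regions may lie between them. Over the 20 ends with at least 20 regions the median spacing went from 1384.5 bp at the right end of chromosome 5 to 2682.5 bp at the left end of chromosome 10 and so was a few kb at most at ends with few regions too. The right end of chromosome 5 had no gap above 8.93 kb, whereas at the right end of chromosome 12 the largest gap, 533.9 kb, separated a lone region from the block.

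**Figure D3:**
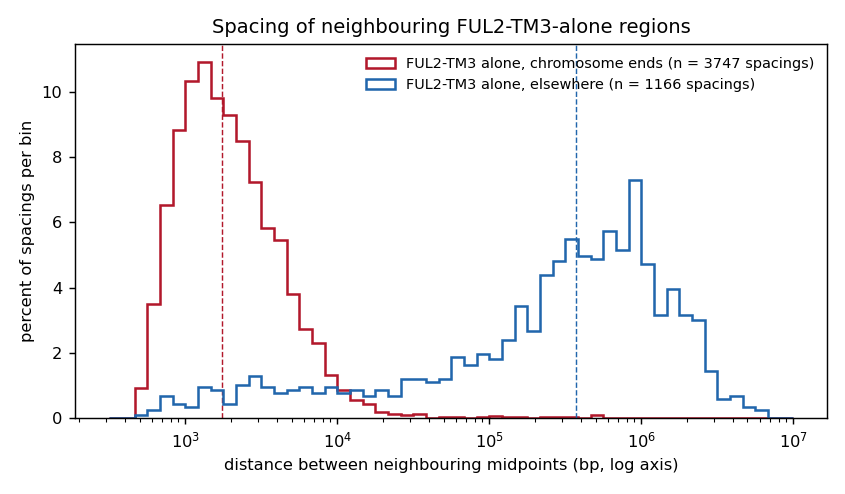
Distance between midpoints of neighbouring FUL2-TM3-alone regions in bp on a log axis, as percent of spacings per bin, for chromosome ends (red) and elsewhere on the chromosomes (blue). Dashed lines are the medians, 1747.5 and 374623 bp, and 97.3% of the spacings at ends are under 10 kb.

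Counted together with the shared FUL2-TM3 regions, the blocks were continuous over long stretches. A run was defined, after the data had been seen, as at least 10 FUL2-TM3 regions of any kind with no step between midpoints above 10 kb. There were 48 runs with a median span of 98.0 kb. They covered 8.91 Mb and held 3649 (96.8%) of the 3770 regions, leaving 121 outside. The longest lay at the left end of chromosome 5 (chr5:37119-1091391 of the Moneyberg genome). It spanned 1054 kb and held 671 FUL2-TM3 regions, and all 440 regions of that end were in it. FUL2-TM3 regions covered 61.4% of its length. The next were a run of 751 kb at the right end of chromosome 3 with 341 regions and one of 531 kb at the left end of chromosome 8 with 313. Of the 48 runs 44 began within 1 Mb of an end and 4 lay wholly beyond it. Those 4 were on chromosome 3 (chr3:29452068-29491312 with 17 regions and chr3:29527321-29591743 with 36) and on chromosome 9 (chr9:78515051-78542552 with 11 and chr9:78656448-78669044 with 10), and 37 of their regions were FUL2-TM3 alone. With a step of up to 5 kb there were 92 runs.

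Peaks of the J and J2 complexes were not gathered in these stretches. Inside the runs there were 9.65 peaks per Mb of FUL2-J, against 12.6 per Mb over the chromosomes. The values were 1.68 against 5.99 for FUL2-J2, 3.14 against 13.1 for MC-J and 0.785 against 5.66 for MC-J2. MC-TM3, the other complex with TM3, had 145 peaks per Mb inside the runs and 13.8 over the chromosomes. The runs were set by the density of FUL2-TM3 regions, alone or shared, and so without regard to peaks of the other lists. These differences in density were not tested. Over all 24 ends there were 1417 peaks of MC-TM3, 212 of FUL2-J, 188 of MC-J, 96 of FUL2-J2 and 78 of MC-J2, and no J or J2 list had above 19 at any end. At each of the 20 ends with blocks the FUL2-TM3-alone regions outnumbered the MC-TM3 peaks, which were 12 to 215 per end.

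MC-TM3 was also the nearest of the other complexes. The median distance from a FUL2-TM3-alone summit near an end to the nearest summit was 4.03 kb for MC-TM3. It was 115.5 kb for FUL2-J, 169 kb for MC-J, 276 kb for FUL2-J2 and 394 kb for MC-J2. For FUL2-TM3-alone regions elsewhere these distances were 23.2 kb for MC-TM3, 26.9 kb for FUL2-J, 27.6 kb for MC-J, 65.7 kb for FUL2-J2 and 72.8 kb for MC-J2. An MC-TM3 summit lay within 5 kb of 2137 (56.7%) of the regions near ends and of 200 (17.0%) of those elsewhere.

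The regions were wide and variable. Their median width was 472.5 bp (462 to 487 bp) with quartiles of 351 and 727 bp, and the widest had 5340 bp, while no peak of theirs was below 262 bp. The 1178 FUL2-TM3-alone regions elsewhere had a median of 294 bp (291 to 297 bp) with quartiles of 274 and 328 bp. At least 1000 bp were reached by 436 (11.6%) near ends and 11 (0.934%) elsewhere. The shared FUL2-TM3 regions near ends, which join peaks of several lists, had a median of 895 bp and reached 1000 bp in 475 cases. The median width was above 294 bp at each of the 20 ends, from 379.5 bp at the right end of chromosome 9 to 619 bp at the left end of chromosome 5. In the distance steps up to 1 Mb it stayed between 432 and 548 bp. The summit lay at a median of 48.6% of the width with quartiles of 30.8% and 66.8%, against 41.0% and 58.0% elsewhere, and so was more loosely placed around the middle. All in all the 3770 regions covered 2.28 Mb, from 1.23% of the window at the right end of chromosome 11 to 34.0% at the left end of chromosome 5.

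Their fold enrichment, the summit pileup over the local background, was low for this complex. The median was 2.89 (2.87 to 2.91), with quartiles of 2.59 and 3.20 and a range from 1.64 to 5.62. FUL2-TM3-alone regions elsewhere had 3.44 (3.39 to 3.49), shared regions near ends 3.13 (3.10 to 3.17) and shared regions elsewhere 3.92. The median fold was below 3.44 at each of the 20 ends, from 2.72 at the right end of chromosome 3 to 3.31 at the left end of chromosome 3, and in the distance steps it stayed between 2.82 and 2.93. The difference in medians between FUL2-TM3-alone regions near ends and elsewhere was -0.55, and -0.26 when only 0.5 Mb counted as an end and the inner part of the blocks joined the other side. The lower fold was clearest among narrow regions. Among regions of 262 to 300 bp the median was 2.91 near ends (558 regions) and 3.48 elsewhere (670 regions), and from 300 to 500 bp it was 2.86 (1443 regions) and 3.43 (454 regions). From 500 to 1000 bp it was 2.90 (2.87 to 2.94, 1333 regions) and 3.08 (2.92 to 3.34, 43 regions). At 1000 bp and more it was 2.94 (2.86 to 2.99) and 3.16 (2.92 to 3.72), with only 11 regions elsewhere. In both of these wider classes the intervals overlapped. Across the regions near ends, fold and width had a Spearman correlation of 0.02, so width did not order them by fold.

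By significance too the regions stood low in the list. The median -log10 q was 9.51 near ends, against 12.1 for FUL2-TM3-alone regions elsewhere, 13.4 for shared regions near ends and 14.1 for shared regions elsewhere. A value of at least 10 was reached by 1668 (44.2%) of the 3770, whereas 66.3% of all FUL2-TM3 regions on the chromosomes reached it. In the ranking of all FUL2-TM3 peaks by -log10 q, 42.2% of the regions were among the weakest 25% and 8.20% among the strongest 25%. The lowest value, 4.01, was also the lowest of the list.

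The fold and p of a peak together give the reads at its summit and the local background, which could be solved for 3428 (90.9%) of the 3770 regions. The 342 unsolved ones had low folds, from 1.81 to 2.37, so the values on reads and background leave out a part of the weakest regions. Elsewhere only 28 FUL2-TM3-alone regions (2.38%) were unsolved. A median of 84 treatment reads (83 to 85) covered a summit near an end, against 78 (76 to 79) at FUL2-TM3-alone regions elsewhere. By end the median went from 59 to 106 and was above 78 at only 10 of the 20 ends with blocks. The background was equal to 19 input reads (19 to 19) near ends, with quartiles of 16 and 23.1, and to 14.4 (14 to 15) elsewhere. The common level, which is the most frequent background recovered from the FUL2-TM3 list, was 10.8. Only 57 (1.66%) of the solved regions near ends were at this common level, against 227 (19.7%) elsewhere. The median background was above that elsewhere at 18 of the 20 ends and reached 25 at the left end of chromosome 5 and the right end of chromosome 8. The exceptions were the left end of chromosome 3 at 13.0 and the right end of chromosome 11 at 12.3.

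**Figure D4:**
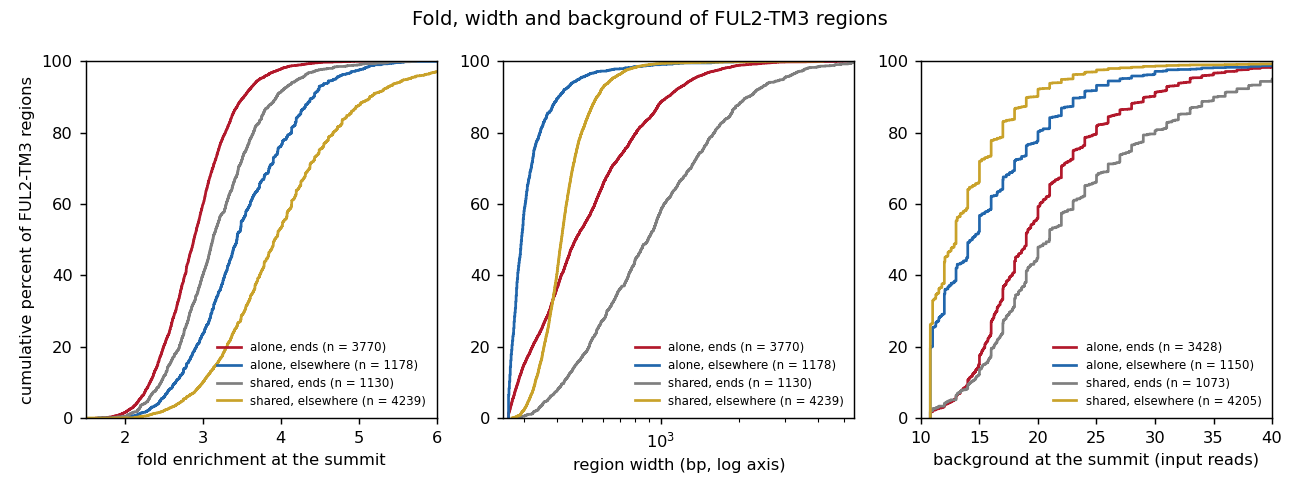
Cumulative percent of FUL2-TM3 regions by fold at the summit, by width in bp (log axis) and by background in input reads, for regions alone near chromosome ends (red), alone elsewhere (blue), shared near ends (grey) and shared elsewhere (yellow). The regions alone near ends lie at the lowest folds (median 2.89) and, with the shared regions near ends, at the highest backgrounds (medians 19 and 21.0).

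Among regions of like background the median fold near ends was the lower by less. With 15 to 20 input reads it was 3.02 (1401 regions) and 3.29 (291 regions). With 20 to 25 it was 2.82 (808 regions) and 3.11 (163 regions), and with 25 or more 2.62 (701 regions) and 2.79 (95 regions). Reads were lower near ends in these classes, at medians of 78 against 84, 91 against 101 and 118 against 122. Under 15 input reads the fold was 3.31 near ends (518 regions) and 3.87 elsewhere (601 regions), but the backgrounds in this class were not alike, with medians of 13.4 and 11.3. Across the regions near ends the background had a Spearman correlation of -0.53 with fold and of 0.84 with reads. Background and fold are derived from the same numbers, and a peak over a higher background needs more reads to pass, so these correlations are descriptions of the list. The part of the higher background in the calling of these peaks was not tested.

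A raised background near ends was largest at the peaks of both TM3 complexes, smaller at those of FUL2-J and not seen at those of J2. For MC-J the intervals at the ends with blocks (13 to 16) and away from ends (13.7 to 14) overlapped. At the 20 ends with blocks the median was 19.2 input reads for all FUL2-TM3 peaks and 19.3 for MC-TM3 peaks, against 13 and 12 away from ends. For MC-TM3 only 842 of 1356 peaks there could be solved. In the same windows it was 15 for FUL2-J, 15 for MC-J, 11.1 for FUL2-J2 and 10.4 for MC-J2, from 161, 115, 65 and 58 solved peaks, against 12.8, 14, 11.1 and 11 away from ends. At the 4 ends without blocks FUL2-TM3 peaks had 12.3 and MC-TM3 peaks 11.3. The lists were called against the same kind of input but have their peaks at different places, so these values compare the places that were called.

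Single regions spanned this range. The highest -log10 q near an end, 33.1, was at chr7:69210471-69210786, 65.0 kb from the right end of chromosome 7. The region was 316 bp wide and had a fold of 4.66, with 153 reads over a background of 22. Next came a wide one at chr5:626543-627700 (1158 bp) with a -log10 q of 29.6, whose 184 reads stood over a background of 34 and gave a fold of 3.68. A region at chr8:68461223-68461557 reached 28.3 with a fold of 4.31, and one at chr9:83560812-83561110 reached 26.8 with 4.53. The regions at chr3:68179483-68180216 and chr5:602576-602837 followed with 26.7 and 26.4 and folds of 4.15 and 3.46. The strongest regions thus came from 5 chromosomes and were from 262 to 1158 bp wide.

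The widest regions were above the median -log10 q of 9.51 and below the strongest ones. At chr8:68818933-68824272, 62 kb from the right end of chromosome 8, a region of 5340 bp had a fold of 2.45 and a -log10 q of 11.8, with 140 reads over a background of 39. Regions of 4944 bp at chr5:87475-92418 and of 4713 bp at chr8:535712-540424 had folds of 3.08 and 3.41 and -log10 q of 12.6 and 12.8. The lowest fold, 1.64, came from the region with the highest background among the solved ones, 310 bp at chr5:106428-106737. It had 209 reads over 88 input reads and a -log10 q of 5.78. At the left end of chromosome 5 the outermost region was chr5:41928-42684, 42.3 kb from position 0, with a fold of 2.45 and a -log10 q of 6.46. The only region at the right end of chromosome 2, chr2:54635409-54635673, was unlike most others in being narrow (265 bp) and over the common background of 10.8 input reads, with 59 reads and a fold of 3.55.

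The limit of 1 Mb cut through the blocks of chromosomes 3 and 5. Just inside it were chr3:67446365-67447490 at 999.9 kb, with a width of 1126 bp and a fold of 3.28, and chr5:998619-1000550 at 999.6 kb, with 1932 bp and 4.07. Just outside were chr5:1001087-1001441 with 355 bp and 3.06, and chr5:1001602-1002047 with 446 bp and 2.88.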

How the data were processed

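The authors trimmed reads with Trim Galore, mapped them with hisat2 to the Moneyberg genome, merged alignments per complex and called narrow peaks with MACS2 against the input. The paper gives the threshold as a P of 0.0001, and in the lists this value bounds q. Tool versions, and how input libraries were combined, are not given in the sources used here. The authors deposited 1 list per complex, with a position, a fold enrichment (a ratio of pileup to local background, with a pseudocount of 1), a -log10 p and -log10 q, and the offset of the summit in bp. The score column was not used.

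Peaks of the 6 lists overlapping by at least 1 bp were joined (52995 peaks, 10654 of FUL2-TM3, giving 26850 regions, also by bedtools 2.31.1 merge). Python 3.11.15, numpy 2.4.6, pandas 2.3.3, scipy 1.17.1 and matplotlib 3.10.9 were used. Shares have Wilson intervals and medians binomial ones, at 95%. Library totals were not used. From the formulas for fold and p, 1 treatment read was worth 0.694 at the scale of the input, so the merged FUL2-TM3 treatment was 1.44 times as deep, and 95.1% of its peaks were solved to whole reads within 0.1. A solution needed a background of at least 5. On 2000 simulated FUL2-TM3 peaks 85.2% were solved, and 100% of the 1704 solved gave the set reads and background. The simulated peaks were made with the same formulas for fold and p and solved with their known weight. They did not reach the highest backgrounds or lowest folds of the regions. They therefore do not check the formulas, the estimate of the weight or the values of such regions. All 1000 simulated regions were returned. Reads are not independent molecules, so intervals cover counting error only.

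Members, lists and comparisons were chosen with earlier results of these data known. Regions named singly follow a rule: the 6 with the highest -log10 q, the 3 widest, the outermost at the ends with most and fewest, 2 just inside and 2 just outside 1 Mb, and the lowest fold. Alternatives were other joins, thresholds, list lengths and distances. Runs, the background at peaks of the other lists, and alternatives without the left end of chromosome 5 or with chromosome ends from the other 5 lists, were added after seeing the data. Gene names were not matched.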

Additional observations from a re-analysis of the deposited data

Results flagged for a closer look

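The sequence not placed on a chromosome, which spans 8.54 Mb and was left out because it has no chromosome end, held 240 regions of FUL2-TM3 alone, which no comparison above uses. They were 75.2% of the 319 FUL2-TM3 regions there. Their median fold was 2.91, their median width 476.5 bp and their median background 16.4 input reads, beside 2.89, 472.5 bp and 19 for the regions at chromosome ends.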

How the results depend on the processing

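Of 60 values recomputed under an alternative, 42 stayed within the limit set for them and 18 moved. The limits were not equally strict, so these counts do not measure stability. Ends of 0.5 Mb gave 2796 regions against 3770, and steps up to 20 kb gave 33 runs against 48, both counted as within the limit. A share alone of 75.5% against 76.9% counted as moved. Only the difference in median fold can change sign, and it stayed negative under each alternative. A -log10 q of at least 10 in every list gave 2023 regions, a share alone of 79.4%, a median fold of 3.19, a width of 614 bp, a spacing of 3014.5 bp and a background of 20.2 input reads. Only 1668 of the 3770 regions reach this value, so others of the 2023 became alone because peaks of other lists dropped out. A fold of at least 3 gave 1821 regions and a share of 82.7%, and 4000 peaks per list gave 1043 and 90.7%. A cut on every list also drops peaks of the other complexes, so a higher share alone follows in part from the cut. With ends of 2 Mb the share was 75.5%, and with ends of 0.5 Mb the difference in fold was -0.26 and the background 18.9. Without the left end of chromosome 5 the fold was 2.91, the width 459 bp, the outer share 78.9% and the background 18.3. Runs numbered 92 with steps up to 5 kb and 33 up to 20 kb. No paired analysis was possible because the lists hold no values per replicate, and for the same reason no replicate could be left out. Values on reads and background cover the 90.9% of regions that were solved, and the unsolved ones had folds of at most 2.37.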
